A study of Mus musculus with 12 samples.

Results

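The genes described here mark the cells of brain blood vessels. They comprise endothelial genes, which include those of the blood–brain barrier, and mural genes, which include those of pericytes and vascular smooth muscle. The members were chosen by their symbols, 35 in all, and 34 of them had a row among the 23282 gene rows of each count table, 25 endothelial and 9 mural. Cspg4l was not analysed here. RNA was measured in bulk tissue of 2 brain regions, striatum and cortex, from R6/2 HD mice and WT littermates, with 2 libraries for each of the 4 HD groups and 1 library for each of the 4 WT groups, 12 in all. HD and WT mice were 8 weeks old at the pre-symptomatic stage and 13 weeks old at the post-symptomatic stage. R6/2 mice express a short fragment of human HTT with a long CAG repeat from a transgene, so that they model the effect of this fragment rather than of the whole protein, and no treatment of the mice was stated. Since nothing states which libraries came from the same animal, p-values measure the spread between these libraries, which may be partly technical.

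Endothelial cells of the brain are sealed to each other by tight junctions and carry nutrients, hormones and drugs across through transporters in their membranes. Pericytes lie on the capillaries within the same basement membrane and help to maintain the barrier, and smooth muscle cells wrap the arterioles and set their diameter. In bulk tissue, fewer cells of a type and less RNA per cell cannot be told apart.

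In 2 of the 34 members the HD and WT libraries did not overlap, beside 4.89% of all genes tested, and their promoters are shown for that reason. Rgs5 (chromosome 1, 169655501 to 169695813, plus strand) and Slco1c1 (chromosome 6, 141524368 to 141570177, plus strand) are placed in GRCm38, the build that mm10 names, by the GENCODE M21 annotation. The sequences are the 250 bases before the start of each gene in RefSeq (GRCm38.p6), written 5′ to 3′, with a match to CTTTGA or its reverse complement in capitals. This is the core that TCF/LEF factors of Wnt signalling bind.
Rgs5, chr1:169655251-169655500, plus strand: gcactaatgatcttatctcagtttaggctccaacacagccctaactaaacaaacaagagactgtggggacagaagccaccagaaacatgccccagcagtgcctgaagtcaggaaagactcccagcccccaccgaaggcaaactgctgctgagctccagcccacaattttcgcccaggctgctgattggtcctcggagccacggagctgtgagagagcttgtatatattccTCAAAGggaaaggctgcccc
Slco1c1, chr6:141524104-141524353, plus strand: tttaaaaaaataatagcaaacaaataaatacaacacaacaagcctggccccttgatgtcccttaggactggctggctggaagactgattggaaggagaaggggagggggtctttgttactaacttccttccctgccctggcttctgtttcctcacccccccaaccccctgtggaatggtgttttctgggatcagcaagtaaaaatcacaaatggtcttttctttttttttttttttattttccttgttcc
The Rgs5 promoter held the letters TCAAAG between 20 and 15 bases before the start, and the Slco1c1 window held no match. A RefSeq promoter was found for 23 of the 34 members, 17 endothelial and 6 mural. In a search of both strands, CTTTGA was present on at least 1 strand for Rgs5, Mfsd2a and Abcb1a, and in 13.8% of 32851 promoters of all genes. The Abcb1a window, chr5:8566841-8567090, follows its RefSeq start and lies far before its GENCODE start at 8660077. CNGGAAGT, which ETS factors of endothelial cells bind, was present for Tie1 and Abcg2, and in 7.58% of all promoters. The CArG box of serum response factor, a regulator of smooth muscle genes, was searched only as CC, 6 letters of A or T, and GG. In this form it was in no member's window and in 1.47% of all promoters. Looser forms were not searched, and of the smooth muscle members only Acta2 and Des had a window. No matches to different motifs overlapped in a member's window. A match in letters is not a site of binding.

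Total counts lay between 8814386 and 12091201 per library. Reads of Rn45s, the ribosomal RNA precursor, made up 10.5% to 15.2% of HD libraries but 4.32% to 5.62% of WT libraries, so that a difference in library make-up and the genotype cannot be told apart. The second library of pre-symptomatic HD striatum and that of post-symptomatic HD cortex stood apart in other cell types. The choroid plexus markers, 8 genes, summed to 997 and 3046 CPM (counts scaled by TMM to the library's size) there and to between 3.48 and 136 CPM elsewhere, most of it from Ttr in both libraries. The oligodendrocyte markers, 10 genes, summed to 20196 CPM in that striatal library and to between 2282 and 7201 CPM elsewhere. The red blood cell markers, 5 genes, summed to between 64.7 and 1673 CPM over all libraries. Leaving out both libraries that stood apart is described wherever it changed a call. By contrast, the endothelial members summed to between 568 and 759 CPM and the mural members to between 88 and 149 CPM. Striatal neuron markers, 10 genes, were higher in every striatal library than in any cortical library, with a lowest sum of 1472 CPM against a highest of 411 CPM. The striatal library that stood apart had 2453 CPM, against 7689 CPM in the other HD library of its group and 7580 CPM in the WT library of that age.

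**Figure D1:**
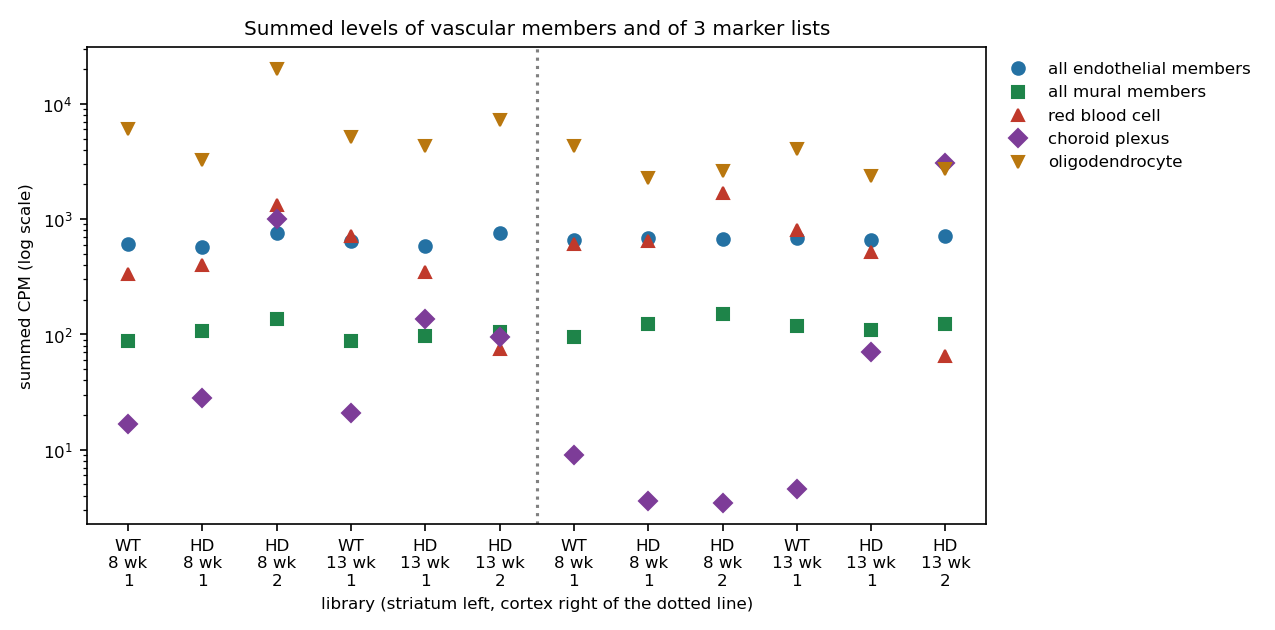
Summed CPM (log scale, TMM-scaled) of the endothelial members, the mural members and 3 marker lists of other cells in each of the 12 libraries, with striatum left and cortex right of the dotted line, and genotype, age and library number below. Each point is 1 library. The endothelial sums stay between 568 and 759 CPM, while the choroid plexus sums run from 3.48 to 3046 CPM.

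To ask whether vascular genes differed between genotypes, HD mice were compared with WT mice at each age over both regions. The clearest difference was in Rgs5, a pericyte gene, which was higher in HD mice at both ages. Esam, a junction gene, was lower in HD mice at the post-symptomatic age. At that age 2 of the 34 members passed an adjusted p-value of 0.05 by edgeR, beside 7.36% of the 14706 genes tested. At the pre-symptomatic age 1 of 34 passed, beside 2.1% of all genes. Thus neither count set the members apart from other genes. All 34 members passed the filter on low counts. The median log2 fold change of HD to WT was 0.09 over the members at the post-symptomatic age, beside 0.01 over all genes, and 0.25 at the pre-symptomatic age, beside -0.01 over all genes. The endothelial members had a median of 0.08 and 0.18 at these ages, and the mural members had a median of 0.11 and 0.42.

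**Figure D2:**
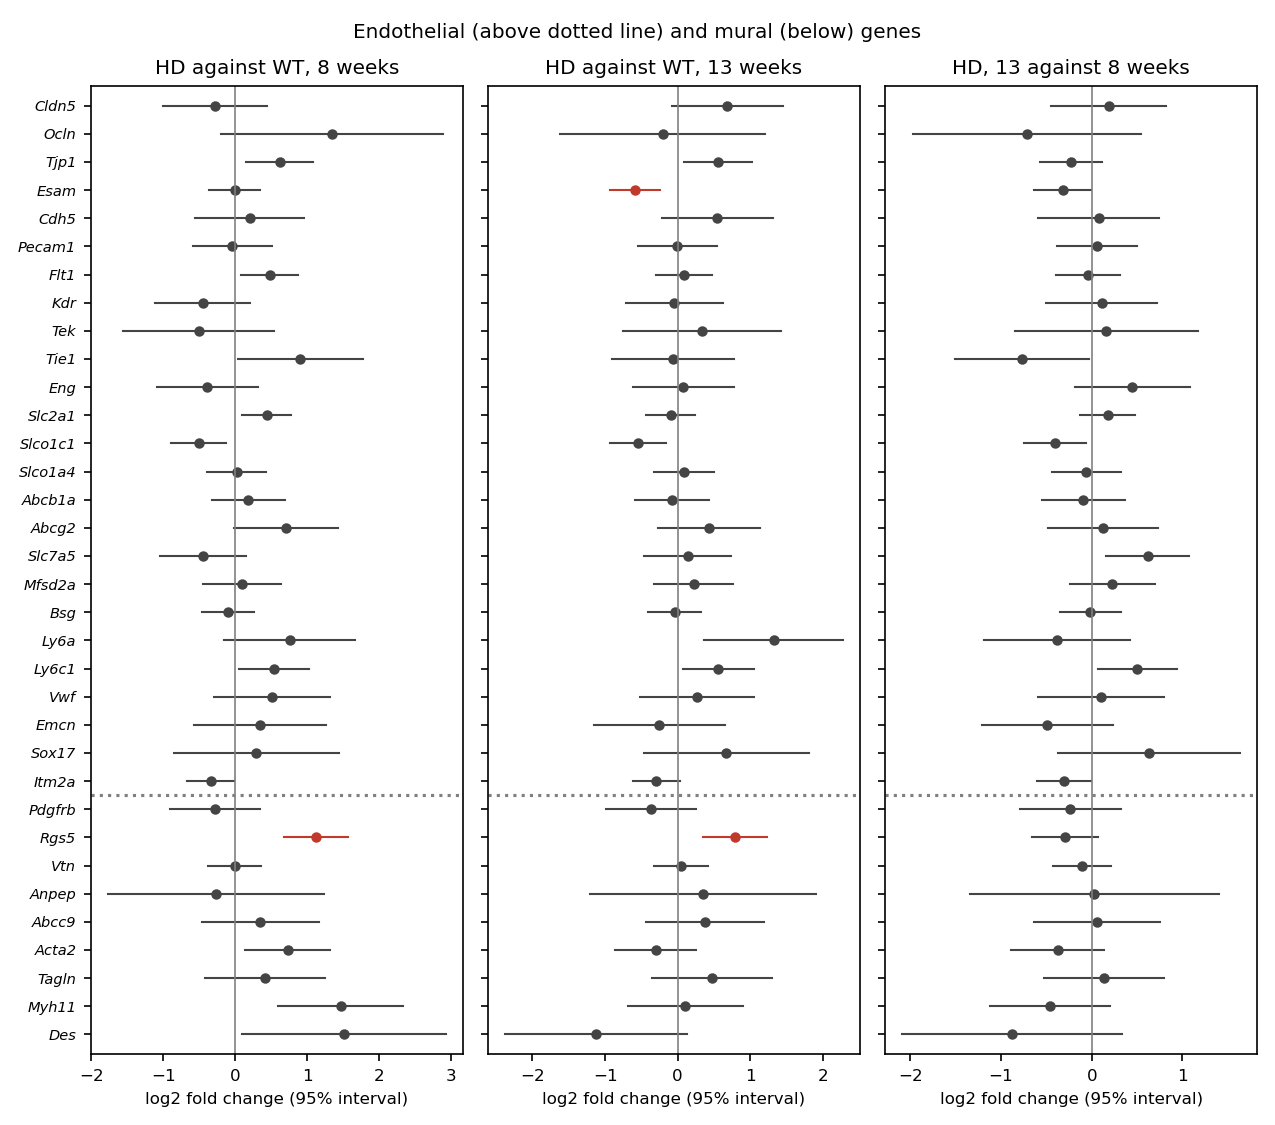
Log2 fold change of each of the 34 members with its 95% interval (edgeR), for HD against WT at 8 weeks (left) and 13 weeks (middle), and for HD mice at 13 against 8 weeks (right). Endothelial genes are above and mural genes below the dotted line, and red marks an adjusted p-value under 0.05. Rgs5 is red in both comparisons with WT mice, Esam is red at 13 weeks, and no gene is red between the ages of HD mice.

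Rgs5 encodes a regulator of G-protein signalling that marks pericytes. In WT mice of 8 weeks its level was 14.8 CPM in striatum and 13.7 CPM in cortex, and at 13 weeks it was 13.8 CPM and 15.1 CPM. In pre-symptomatic HD mice it was 27.5 and 39.1 CPM in striatum and 29.3 and 27.8 CPM in cortex. In post-symptomatic HD mice it was 24.8 and 24.4 CPM in striatum and 29.0 and 21.8 CPM in cortex. All 8 HD libraries were therefore above all 4 WT libraries, which held for 3.64% of all genes tested. These levels rested on between 145 and 363 reads per library. The log2 fold change was 1.12 (SE 0.21, 95% interval 0.67 to 1.57), a 2.17-fold higher level, at the pre-symptomatic age (edgeR, adjusted p = 0.0176). It was 0.79 (SE 0.20, 95% interval 0.35 to 1.23), or 1.73-fold, at the post-symptomatic age (edgeR, adjusted p = 0.0360).

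Within each region and age, where 1 WT library allows no test, the log2 ratio of Rgs5 was 1.17 in striatum and 1.06 in cortex at 8 weeks, and 0.83 and 0.75 at 13 weeks. Without both libraries that stood apart, Rgs5 remained past the threshold at both ages (edgeR, adjusted p = 0.0145 and 0.0104). The post-symptomatic call was lost with a replicate block (edgeR, adjusted p = 0.0596), with sex as a term (edgeR, adjusted p = 0.0574), and with 7 of the 12 libraries left out in turn. Without the WT striatal library of that age, the adjusted p-value was 0.370 by edgeR. The pre-symptomatic call was lost without a WT library of that age, with adjusted p-values of 0.188 without striatum and 0.107 without cortex (edgeR), and without the first HD cortical library (edgeR, adjusted p = 0.0501).

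The other pericyte genes did not pass the test by edgeR at either age. Pdgfrb, the receptor by which endothelial PDGF recruits pericytes, had a log2 fold change of HD to WT of -0.28 at 8 weeks and -0.37 at 13 weeks. Vtn, which encodes vitronectin, had -0.00 (95% interval -0.37 to 0.36) and 0.05 (95% interval -0.32 to 0.42). Abcc9, a subunit of the potassium channel of mural cells, had 0.35 and 0.38. Anpep, an aminopeptidase of pericytes, had between 3 and 35 reads per library and intervals wider than 1 log2 unit on either side. Hence Rgs5 was the only 1 of 5 pericyte members past the threshold at either age.

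**Figure D3:**
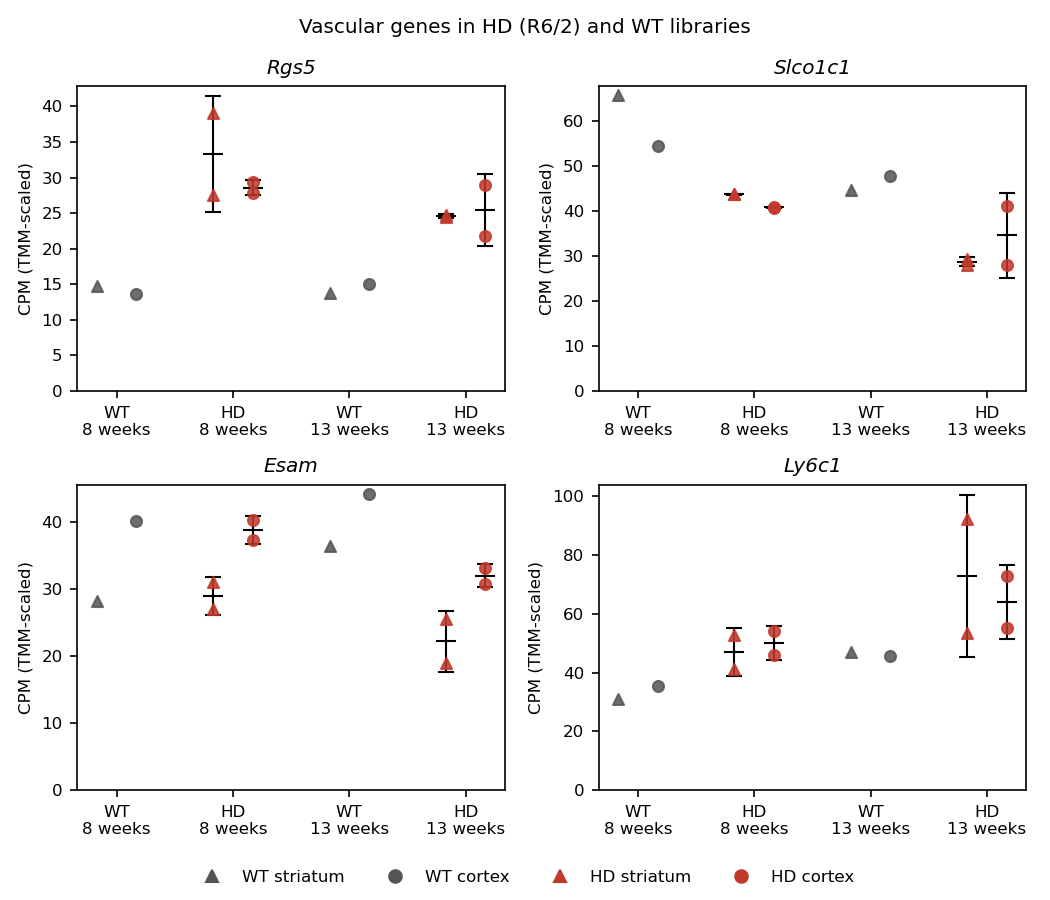
TMM-scaled CPM of Rgs5, Slco1c1, Esam and Ly6c1 in each library by genotype and age, with triangles for striatum, circles for cortex, grey for WT and red for HD. Bars are the mean ± SD of the 2 HD libraries of a group. The 8 HD libraries of Rgs5 lie between 21.8 and 39.1 CPM, above all WT libraries, and those of Slco1c1 lie between 27.9 and 43.8 CPM, below all WT libraries.

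Slco1c1 encodes a transporter by which thyroxine enters the brain, and which cells of the tissue its reads came from was not tested. In 8-week WT mice its level was 65.8 CPM in striatum and 54.4 CPM in cortex, and at 13 weeks it was 44.6 CPM and 47.9 CPM. In HD mice it was 43.8 and 43.7 CPM in striatum and 40.8 and 40.9 CPM in cortex at 8 weeks. At 13 weeks it was 29.5 and 28.02 CPM in striatum and 27.9 and 41.2 CPM in cortex. All 8 HD libraries were below all 4 WT libraries, which held for 1.25% of all genes. The log2 fold change of Slco1c1 was -0.51 (95% interval -0.89 to -0.12) at the pre-symptomatic age (edgeR, adjusted p = 0.209). It was -0.55 (95% interval -0.93 to -0.16) at the post-symptomatic age (edgeR, adjusted p = 0.0845), and neither passed the threshold. Without both libraries that stood apart, the post-symptomatic value was -0.71 and passed (edgeR, adjusted p = 0.00964), as it did without the second HD cortical library of that age alone (edgeR, adjusted p = 0.0204) and with DESeq2 (adjusted p = 0.0487).

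Esam encodes an adhesion molecule of endothelial tight junctions and lies on chromosome 9 (37528078 to 37538319, plus strand). At 13 weeks its level was 36.4 CPM in WT striatum against 19.0 and 25.5 CPM in HD striatum. In cortex it was 44.2 CPM in the WT library against 33.2 and 30.7 CPM in the HD libraries. Within each region, both HD libraries were thus below the WT library, which was not counted over all genes. The log2 fold change was -0.59 (SE 0.16, 95% interval -0.94 to -0.25), a 1.51-fold lower level (edgeR, adjusted p = 0.0429). At 8 weeks the log2 fold change was -0.01 (95% interval -0.36 to 0.35), with 26.9 and 31.0 CPM in HD striatum against 28.2 CPM, and 40.2 and 37.3 CPM in HD cortex against 40.1 CPM. The change of this difference with age was -0.58 and did not pass its own test (edgeR, adjusted p = 0.447). The post-symptomatic call was lost in 14 of 19 alternatives, among them the replicate block (edgeR, adjusted p = 0.0530), sex as a term (0.0838) and the removal of both libraries that stood apart (0.0511).

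Among the other junction genes, Tjp1, a scaffold of tight junctions, had a log2 fold change of 0.62 at 8 weeks and 0.56 at 13 weeks, with adjusted p-values of 0.212 and 0.142 (edgeR). Cldn5, the main claudin of the barrier, had -0.28 (95% interval -1.01 to 0.45) and 0.68 (95% interval -0.08 to 1.45). The cadherin Cdh5 had 0.20 and 0.55, and the adhesion molecule Pecam1 had -0.04 and -0.00. Ocln, which encodes occludin, had between 3 and 21 reads per library and wide intervals. None of these 5 genes passed the threshold by edgeR.

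No receptor of vascular growth factors passed the test by edgeR. Flt1 and Kdr, the VEGF receptors, had log2 fold changes of 0.48 and -0.45 at 8 weeks and of 0.09 and -0.04 at 13 weeks. Tie1 and Tek, which act in angiopoietin signalling, had 0.91 and -0.51 at 8 weeks. Eng, a co-receptor of TGF-β signalling, had -0.38 at 8 weeks and 0.08 at 13 weeks. The receptors therefore had values of both signs.

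Of the 8 barrier transporters, none passed at either age by edgeR with all libraries, and DESeq2 called Slco1c1 at 13 weeks. Slc2a1, the glucose transporter of the barrier, had a log2 fold change of 0.44 (95% interval 0.09 to 0.78) at 8 weeks and -0.09 (95% interval -0.43 to 0.24) at 13 weeks. Bsg, a chaperone of monocarboxylate transporters that other cells also express, had -0.10 and -0.04. The lipid transporter Mfsd2a, which limits transcytosis, had 0.09 and 0.22. The efflux pumps Abcb1a and Abcg2 had 0.18 and 0.71 at 8 weeks, and -0.08 and 0.43 at 13 weeks. Slco1a4, an organic anion transporter, had 0.02 and 0.08. Except for Slco1c1, no transporter separated all HD from all WT libraries over both ages. At 8 weeks alone, Slc2a1 was 58.3 and 57.7 CPM in WT striatum and cortex and between 70.9 and 92.4 CPM in HD mice. Abcg2 was 6.63 and 6.89 CPM in these WT libraries and between 10.07 and 12.9 CPM in HD mice. The share of all genes that separate at 8 weeks was not counted.

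The endothelial identity genes had the highest median of the endothelial lists, 0.43 at 8 weeks and 0.41 at 13 weeks, but none of the 6 passed by edgeR. Ly6c1, a surface protein of brain endothelium, was 31.1 and 35.4 CPM in WT striatum and cortex at 8 weeks, and 46.9 and 45.7 CPM at 13 weeks. In HD mice it was 41.1 and 52.8 CPM in striatum and 54.3 and 45.9 CPM in cortex at 8 weeks, and 53.3, 92.3, 55.2 and 72.9 CPM in these regions at 13 weeks. Each HD library was above the WT library of its age and region, a pattern not counted over all genes. The log2 fold changes of Ly6c1 were 0.54 and 0.56 (edgeR, adjusted p = 0.292 and 0.151). Ly6a, a related surface protein, had 0.76 at 8 weeks and 1.32 at 13 weeks (edgeR, adjusted p = 0.461 and 0.0929). Ly6a passed at 13 weeks with DESeq2 (adjusted p = 0.0296), with sex as a term (edgeR, adjusted p = 0.0411) and without the first HD striatal library of that age (edgeR, adjusted p = 0.0311). Counts of Ly6a and Ly6c1 are uncertain, since the Ly6 genes resemble each other and the authors' treatment of shared reads is not given in the sources used here. Vwf, Emcn, Sox17 and Itm2a had log2 fold changes between -0.34 and 0.52 at 8 weeks.

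Genes of vascular smooth muscle had the largest median at the pre-symptomatic age, 1.10 over 4 genes, although none of the 4 passed the threshold by edgeR. Markers of some other cells moved the same way at this age, and those of others did not. The meningeal fibroblast markers, 10 genes, summed to 67.9 and 124 CPM in HD striatum against 53.8 CPM, and to 168 and 200 CPM in HD cortex against 104 CPM. The red blood cell markers summed to 403 and 1320 CPM in HD striatum against 336 CPM, and to 642 and 1673 CPM in HD cortex against 609 CPM. All 4 HD libraries were thus above the WT library of their region in both lists, with 0 of 10 and 0 of 5 genes called (edgeR, 1 and 0 unadjusted). The same held for the astrocyte markers, 10 genes, with 4508 and 5067 CPM against 3702 CPM in striatum. In cortex they summed to 5970 and 5987 CPM against 4812 CPM. The oligodendrocyte markers were lower in HD cortex, with 2282 and 2609 CPM against 4316 CPM. In HD striatum they summed to 3262 and 20196 CPM against 6032 CPM. The part of other cells in the values of the smooth muscle genes, and of Rgs5 at this age, was not tested.

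Myh11, the smooth muscle myosin heavy chain, was 4.32 CPM in WT striatum and 4.51 CPM in WT cortex at 8 weeks. It was 11.4 and 11.1 CPM in HD striatum and 14.0 and 12.5 CPM in HD cortex. At 13 weeks it was 5.15 CPM in WT striatum against 4.29 and 9.20 CPM in HD striatum, and 12.02 CPM in WT cortex against 7.65 and 15.0 CPM in HD cortex. The genotypes thus did not overlap at 8 weeks, while they did at 13 weeks. How many of all genes share this pattern was not counted. The log2 fold change was 1.46 (SE 0.40, 95% interval 0.60 to 2.33) at 8 weeks (edgeR, adjusted p = 0.0920) and 0.11 (95% interval -0.69 to 0.90) at 13 weeks. DESeq2 called the first (adjusted p = 0.0115).

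Acta2, smooth muscle actin, was 14.3 CPM in WT striatum at 8 weeks against 19.6 and 32.5 CPM in HD striatum. In cortex it was 23.3 CPM in WT mice against 28.7 and 41.7 CPM in HD mice. At 13 weeks it was 20.9 CPM against 18.5 and 20.0 CPM in striatum, and 38.5 CPM against 20.5 and 35.1 CPM in cortex. At 8 weeks each HD library was above its WT library and at 13 weeks each was below it, a pattern not counted over all genes. The log2 fold changes were 0.73 and -0.30 (edgeR, adjusted p = 0.238 and 0.542). Des, the intermediate filament desmin, had between 4 and 32 reads per library, with log2 fold changes of 1.51 and -1.13 that rest on few reads. Tagln, transgelin, had 0.42 and 0.47.

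**Figure D4:**
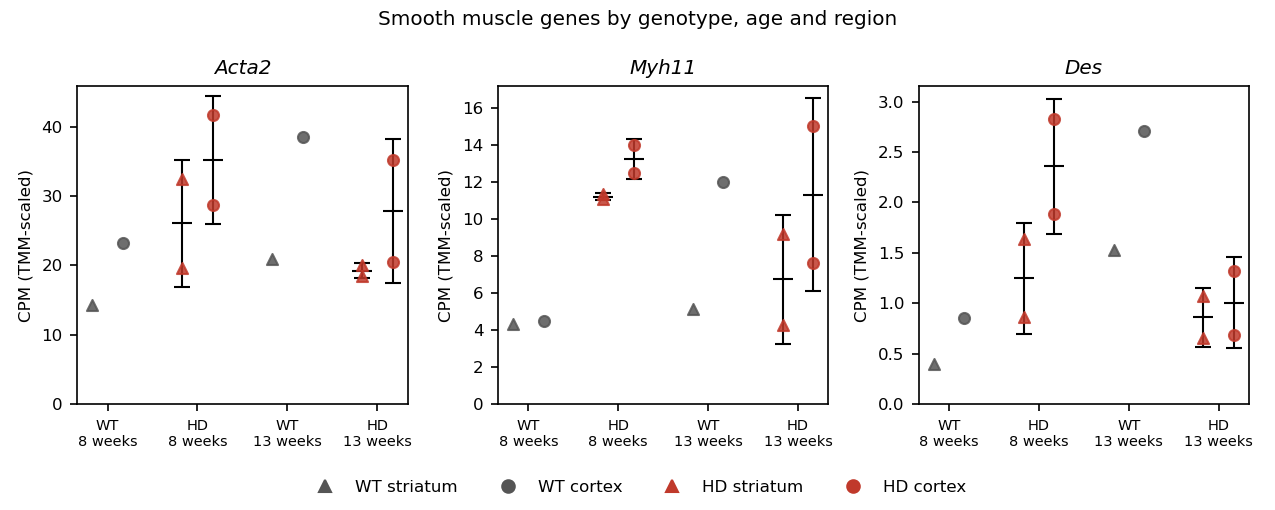
TMM-scaled CPM of Acta2, Myh11 and Des in each library by genotype and age, with triangles for striatum, circles for cortex, grey for WT and red for HD. Bars are the mean ± SD of the 2 HD libraries of a group. At 8 weeks the Myh11 values are 4.32 and 4.51 CPM in WT mice and between 11.1 and 14.0 CPM in HD mice, and at 13 weeks the genotypes overlap.

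Whether the age change differed between genotypes was tested as an interaction over all libraries. None of the 34 members passed (edgeR), beside 0.116% of the 14706 genes. At an unadjusted p-value under 0.05 there were 5 members, and DESeq2 also called 0 with 5 unadjusted. They were Esam, Slc2a1 and the smooth muscle genes Acta2, Myh11 and Des, all with a negative difference. The smooth muscle genes had differences of -1.03 (95% interval -1.84 to -0.23) for Acta2, -1.36 (95% interval -2.51 to -0.21) for Myh11 and -2.63 (95% interval -4.53 to -0.74) for Des, with adjusted p-values between 0.335 and 0.444 by edgeR. Over the alternatives these differences ran from -1.20 to -0.48 for Acta2, from -1.71 to -0.90 for Myh11 and from -2.93 to -2.33 for Des. With a library left out, Acta2 stayed between -1.20 and -0.84, so that its smallest difference came from another alternative. The interaction includes the age change in WT mice, whose ages also differ in the sex read from the libraries. The age change in WT mice alone, where each age has 1 library per region and the ages also differ in the sex read from the libraries, called 0 of 34 members (edgeR and DESeq2, 2 unadjusted in each), beside 0.0136% of all genes. In WT mice the smooth muscle genes had a median log2 change of 0.76 from 8 to 13 weeks, and in HD mice of -0.42.

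Next, the stages of HD mice were set against each other with the 8 HD libraries. None of the 34 members passed the threshold (edgeR, 6 unadjusted), beside 6.45% of the 13944 genes tested, and DESeq2 called 0 with 6 unadjusted. The median log2 change was 0.06 over the endothelial members and -0.24 over the mural members, beside 0.00 over all genes. The 95% interval lay within 1 log2 unit of 0 on both sides for 23 of the 34 members. Changes of 2-fold or more were thus outside the interval for those members, whereas the other members were too imprecise to say.

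Slc7a5, the transporter of large neutral amino acids, had the smallest adjusted p-value among the members. In HD cortex it was 15.8 and 14.5 CPM at 8 weeks and 24.1 and 30.4 CPM at 13 weeks. In HD striatum it was 7.85 and 12.5 CPM at 8 weeks and 13.1 and 12.9 CPM at 13 weeks. In WT mice it was 15.3 CPM in cortex and 17.6 CPM in striatum at 8 weeks, and 20.8 and 14.5 CPM at 13 weeks. The log2 change was 0.62 (95% interval 0.16 to 1.07) over both regions (edgeR, adjusted p = 0.106) and 0.84 (95% interval 0.20 to 1.47) in cortex alone (edgeR, adjusted p = 0.223). Without the second library of pre-symptomatic HD striatum, the value over both regions was 0.82 and passed (edgeR, adjusted p = 0.0148).

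The other members with an unadjusted p-value under 0.05 were Ly6c1, with a log2 change of 0.51, and Esam, Tie1, Slco1c1 and Itm2a, with -0.32, -0.77, -0.41 and -0.30. Their adjusted p-values lay between 0.147 and 0.218 (edgeR). Rgs5 had -0.29 (95% interval -0.66 to 0.07), and both ages were above the WT level. In striatum alone 0 members passed (edgeR, 3 unadjusted, DESeq2 0 with 2 unadjusted), beside 0.16% of 14392 genes. In cortex alone 0 passed (edgeR, 2 unadjusted, DESeq2 0 with 1 unadjusted), beside 0.591%. The difference of the stage change between the regions was tested directly, and 0 members passed (edgeR and DESeq2, 0 unadjusted in each), beside 0% of all genes.

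Finally, striatum was compared with cortex over all libraries. The members called were lower in striatum, 4 of 34, beside 12.1% of the 14706 genes lower and 20.6% called in either direction. They were 1 gene each of the junction, transporter, identity and smooth muscle lists. The median log2 ratio of striatum to cortex was -0.11 over the members and 0.01 over all genes. Of all genes, 7.77% had striatal and cortical libraries that did not overlap, and no member was among them.

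Esam ranged from 19.0 to 36.4 CPM in the 6 striatal libraries, with 1 library above 31.0 CPM, and from 30.7 to 44.2 CPM in the 6 cortical libraries. Its log2 ratio was -0.44 (SE 0.11, 95% interval -0.68 to -0.21), 1.36-fold lower in striatum (edgeR, adjusted p = 0.0119), and the call was kept in all 19 alternatives tried. Vwf, the von Willebrand factor of endothelial granules (chromosome 6, 125546774 to 125686679, plus strand), ranged from 2.24 to 4.71 CPM in striatum and from 4.17 to 7.59 CPM in cortex. Its log2 ratio was -0.77 (SE 0.24), or 1.71-fold lower (edgeR, adjusted p = 0.0391). Slc7a5 (chromosome 8, 121881150 to 121907694, minus strand) ranged from 7.85 to 17.6 CPM in striatum and from 14.5 to 30.4 CPM in cortex. Its log2 ratio was -0.60 (SE 0.19), or 1.52-fold lower (edgeR, adjusted p = 0.0387). Acta2 (chromosome 19, 34241090 to 34255590, minus strand) ranged from 14.3 to 32.5 CPM in striatum and from 20.5 to 41.7 CPM in cortex. Its log2 ratio was -0.59 (SE 0.18, edgeR, adjusted p = 0.0322). The calls of Vwf, Slc7a5 and Acta2 were lost in 11, 10 and 8 of the 19 alternatives. Without both libraries that stood apart, Vwf was lost (edgeR, adjusted p = 0.0979) and the others were kept.

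**Figure D5:**
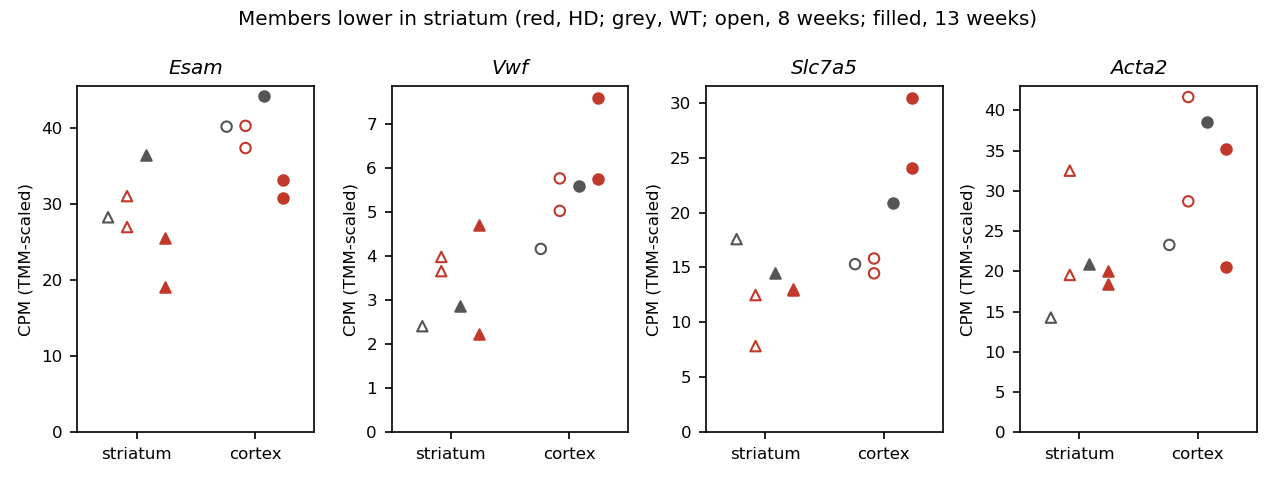
TMM-scaled CPM of Esam, Vwf, Slc7a5 and Acta2 in the striatal (triangles) and cortical (circles) libraries, with red for HD, grey for WT, open symbols for 8 weeks and filled symbols for 13 weeks. Each point is 1 library. In each gene the regions overlap, as for Esam with 19.0 to 36.4 CPM in striatum and 30.7 to 44.2 CPM in cortex.

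Anpep and Myh11 had unadjusted p-values under 0.05, with log2 ratios of -1.17 and -0.55 (edgeR, adjusted p = 0.106 and 0.142). Anpep passed with the voom alternative (adjusted p = 0.0390) and without the second HD striatal library of 13 weeks (edgeR, adjusted p = 0.0115). The other 28 members had log2 ratios of both signs without passing. Of them, Slc2a1 had 0.09 (95% interval -0.13 to 0.32), Ly6c1 0.01 (95% interval -0.31 to 0.32) and Rgs5 0.06 (95% interval -0.23 to 0.34). The meningeal fibroblast markers, 10 genes, summed to between 47.2 and 124 CPM in striatum and between 104 and 222 CPM in cortex, and 6 of them were called lower in striatum. Their part in the regional differences was not tested.

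Other vascular genes were read from lists that hold no member. Of 26 genes of vascular signalling tested between the ages of HD mice, 2 were called, beside 6.45% of all genes, and both were lower after onset. Hey1, a target of Notch signalling in arterial endothelium that other cells also express, had a log2 change of -0.87 (SE 0.19, edgeR, adjusted p = 0.0267). S1pr1, the receptor of sphingosine 1-phosphate in endothelium and astrocytes, had -0.82 (SE 0.16, edgeR, adjusted p = 0.0184). Both calls were lost in 5 of 14 alternatives, with adjusted p-values of up to 0.101 for Hey1 and 0.0795 for S1pr1 (edgeR). The astrocyte markers, 10 genes, summed to between 4508 and 5987 CPM in HD mice at 8 weeks and between 3037 and 3520 CPM at 13 weeks, with 1 of the 10, Slc1a2, called lower (edgeR). The WT libraries had 3702 and 4812 CPM at 8 weeks and 3740 and 4539 CPM at 13 weeks, so that the 13-week HD libraries were below both WT libraries of that age. The part of astrocytes in the values of S1pr1 was not tested. Of 43 other endothelial genes 1 was called lower, the adhesion molecule Vcam1, and of 17 other mural genes and 10 basement membrane genes none was called (edgeR, 1 and 4 unadjusted). The median log2 changes of these lists were -0.18, -0.21, -0.29 and -0.44, in the order named.

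Against WT mice at 13 weeks, Hey1 and S1pr1 were again lower, with log2 fold changes of -0.86 (edgeR, adjusted p = 0.0334) and -0.99 (edgeR, adjusted p = 0.0363). The HD libraries of that age are the same in both comparisons. Hey1 was 14.1 and 25.5 CPM in HD striatum and 20.6 and 17.9 CPM in HD cortex, against 38.5 and 32.4 CPM in the WT libraries. S1pr1 was 50.0 and 41.1 CPM in HD striatum and 47.1 and 60.8 CPM in HD cortex, against 98.04 and 99.4 CPM. The calls of Hey1 and S1pr1 were lost in 9 and 7 of the 19 alternatives, with adjusted p-values of up to 0.324 and 0.316 (edgeR) without the WT striatal library of that age. Lsr, a protein of tricellular junctions, was higher with 0.83 (edgeR, adjusted p = 0.0402), and was the 1 gene called of 45 other endothelial genes, beside 7.36% of all genes. Its call was lost in 9 of the 19 alternatives, with an adjusted p-value of up to 0.353 (edgeR) without the same library. Of 18 other mural genes and 11 basement membrane genes 0 were called (edgeR, 1 and 0 unadjusted). At 8 weeks 0 genes of the 4 lists were called (edgeR, 8, 3, 1 and 0 unadjusted among the endothelial, mural, signalling and basement membrane genes). Between the regions, 6 of 45 other endothelial genes were lower in striatum, beside 12.1% of all genes, among them Cd34 with a log2 ratio of -2.59 (edgeR, adjusted p = 1.91e-06) and Ly6e with -1.55 (edgeR, adjusted p = 0.00204). Which cells of the tissue the reads of Cd34 and Ly6e came from was not tested. Notch3, the Notch receptor of mural cells, was higher in striatum with 1.10 (edgeR, adjusted p = 0.00860), and so was Sparc of the matrix with 1.12 (edgeR, adjusted p = 0.0289). The 11 basement membrane genes went both ways. Besides Sparc, Lamb1 was called higher in striatum with 0.96, and Fn1, Lama4 and Col4a1 were called lower with -0.73, -1.54 and -0.48. Their adjusted p-values lay between 0.00462 and 0.0419 (edgeR). Without both libraries that stood apart, Sparc had 0.68 and was no longer called (edgeR, adjusted p = 0.114), and its call was lost in 9 of the 19 alternatives.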

How the data were processed

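Libraries were prepared from total RNA with a Lexogen QuantSeq kit, which reads the 3′ ends of transcripts. The authors deposited raw counts per gene symbol, 1 table per library, 44 rows of which repeat a symbol. Per the labels, Bowtie2, bedtools and the mm10 build were used, with versions and the counting rule not given in the sources used here. Members and gene lists were chosen with earlier results of these data known.

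From the deposited counts, TMM-scaled CPM, log2 fold changes and p-values were computed with edgeR 4.0.16 in R 4.3.3 (quasi-likelihood test with robust fitting, after filterByExpr at a count of at least 10). P-values were adjusted by Benjamini-Hochberg over all genes tested, with a threshold of 0.05. The stage comparison used the 8 HD libraries with a region term, and genotypes and regions were compared in 1 fit of all 12. Alternatives were DESeq2 1.42.0, limma 3.58.1 (voom with the mouse as random block), upper-quartile scaling, no filter, a replicate block, sex as a term and each library left out. Removing both libraries rich in choroid plexus or oligodendrocyte markers was chosen after seeing the data. Sex was read from the libraries. In each HD group the first library read as male and the second as female, while WT libraries read as male at 8 weeks and female at 13 weeks. The replicate block and sex as a term thus differed only in the WT libraries of 13 weeks and are not independent alternatives. Scripts were tested on simulated data. All members were named, and of the other vascular lists up to 2 called genes with the largest change in each direction per comparison, with a mean of at least 5 CPM. Vcam1, Lamb1, Fn1, Lama4 and Col4a1 were named outside this rule. Reads carried no molecular identifiers, so that they are not independent molecules.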

Additional observations from a re-analysis of the deposited data

Results flagged for a closer look

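Among the 34 members at 2 ages, 4 combinations had HD to WT log2 ratios that differed in sign between the regions in every HD library. In these, both HD libraries of one region were above the WT library and both of the other were below it. The share of all genes with this pattern was not counted, so that the count does not set the members apart. These regional differences were not tested, since each region and age has 1 WT library. For Ocln at 13 weeks the ratio was -0.84 in striatum and 0.15 in cortex, a difference of -0.99, on between 3 and 21 reads per library. For Pecam1 at 8 weeks it was 0.37 in striatum and -0.38 in cortex, a difference of 0.75. For Slc7a5 at 13 weeks it was -0.16 in striatum and 0.39 in cortex, a difference of -0.54. For Pdgfrb at 8 weeks it was -0.84 in striatum and 0.23 in cortex, a difference of -1.07.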

How the results depend on the processing

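No alternative reversed the direction of a gene for which alternatives were run, namely the members with an unadjusted p-value under 0.05 and the other vascular genes named by rule. The remaining members were followed only through the counts of members called. The number of members called in HD against WT mice at 13 weeks was 2, and became 4 with DESeq2, 1 without the filter or with upper-quartile scaling (Rgs5), 1 with sex as a term (Ly6a), 0 with the replicate block, and between 0 and 2 with a library left out. It was 0 without the first HD cortical library or either WT library of 13 weeks, or either HD cortical library of 8 weeks, and 1 without either HD striatal library of 13 weeks or either WT library of 8 weeks. At 8 weeks it was 1, and became 2 with DESeq2 and between 0 and 1 with a library left out, 0 without either WT library or the first HD cortical library of 8 weeks. Between regions it was 4, 5 with voom (Anpep added), and between 1 and 4 with a library left out, namely 1 without either WT library of 13 weeks, the first HD striatal or second HD cortical library of 13 weeks, or the second HD cortical library of 8 weeks. It was 2 without the first HD cortical library of 13 weeks, the first HD library of either region of 8 weeks, or either WT library of 8 weeks. In HD mice by stage it was 0, and between 0 and 1 with a library left out, over both regions and in cortex. The gene was Slc7a5, without the second library of pre-symptomatic HD striatum over both regions, and without either library of that group in cortex. In the other comparisons it stayed 0.

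Scaling by library totals without TMM factors gave a log2 ratio of HD to WT for Rgs5 of 0.94 in cortex at 8 weeks and 0.91 in striatum at 13 weeks. For Slco1c1 it gave -0.74 in striatum and -0.54 in cortex at 8 weeks, and -0.55 in striatum at 13 weeks. With Rn45s left out of the totals, Rgs5 had 1.06 in striatum at 13 weeks, and Slco1c1 had -0.40 in cortex at 8 weeks and -0.41 in striatum at 13 weeks. Ratios of the other region and age groups under these scalings are not given here. The causes were not tested.

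The replicate numbers are not stated to mark a shared animal or day. The correlation of replicate differences over genes was 0.205 and 0.117 between regions of 1 age, and 0.270 and 0.0538 between ages of 1 region. The main fits did not pair the libraries by number. The voom alternative did, taking libraries of the same number, age and genotype as 1 mouse. For each number, age and genotype, the sex read from the libraries was the same in both regions. The replicate block changed no other count of members called. Members with under 40 reads per library, such as Ocln, Anpep and Des, were measured with little precision.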
